A study of Mus musculus with 4 samples.

Results

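The genes described here are the members of the mouse Hox clusters A to D, chosen by symbol: every gene whose name begins with Hoxa, Hoxb, Hoxc or Hoxd followed by a digit. The expression table held 40 such symbols among 23366 genes. Of these, 39 were coding genes (11 in cluster A, 10 in B, 9 in C and 9 in D) and the remaining symbol, Hoxa11as, was an antisense transcript, which is kept apart below. Genes that were not detected were kept.

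RNA was measured in 4 libraries, 1 for each of 4 cultures of immortalized mouse embryonic fibroblasts (MEFs), a line of connective tissue cells derived from mouse embryos and kept in DMEM with FBS. The cultures carried Myc, MycN, a protein the labels name Minimal Myc, or an empty vector as the control, and all 4, the vector culture included, received an adenovirus carrying Cre recombinase and a recovery given as 48 with no unit. By the series' design the vector cells had Myc deleted, and the comparison was meant to show what Myc, a transcription factor, does to expression in these cells. The age and body region of the embryos, and whether the line was 1 clone, were not given in the sources used here. With 1 library per group there is no replicate check, no SD and no test of any difference below.

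Hox genes encode homeodomain transcription factors that lie in 4 clusters and are numbered from 1 to 13 by their order within a cluster. In embryos, low numbers are used from the hindbrain backwards and high numbers towards the lumbar region, the tail and the ends of the limbs. Fibroblasts keep much of the Hox pattern of the body site they came from, and this pattern is read as their positional identity. Polycomb complexes hold silent Hox genes off, complexes with Mll-type methyltransferases hold active ones on, and Pbx and Meis proteins bind DNA together with Hox proteins.

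The promoters of the 4 genes below are shown because 1 library stood apart from the others at each gene, and because Myc binds the hexamer CACGTG. That library was MycN for Hoxa11, and Minimal Myc for the adjacent genes Hoxd8, Hoxd9 and Hoxd10. The 4 genes were chosen, from those with a promoter in the table used, after their values were seen. Each sequence is the 250 bases before the gene's annotated start, 5′ to 3′ in the direction of the gene, from RefSeq on mouse build GRCm38.p6. That build is not the one named for the expression values. Capitals mark CACGTG, which reads the same on both strands.
Hoxa11 (chr6:52245811-52246060, minus strand): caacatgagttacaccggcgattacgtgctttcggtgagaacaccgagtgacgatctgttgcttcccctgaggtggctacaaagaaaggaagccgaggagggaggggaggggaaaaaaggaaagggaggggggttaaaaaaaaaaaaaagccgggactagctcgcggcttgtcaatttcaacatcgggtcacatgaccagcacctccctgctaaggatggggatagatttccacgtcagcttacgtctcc
Hoxd8 (chr2:74704365-74704614, plus strand): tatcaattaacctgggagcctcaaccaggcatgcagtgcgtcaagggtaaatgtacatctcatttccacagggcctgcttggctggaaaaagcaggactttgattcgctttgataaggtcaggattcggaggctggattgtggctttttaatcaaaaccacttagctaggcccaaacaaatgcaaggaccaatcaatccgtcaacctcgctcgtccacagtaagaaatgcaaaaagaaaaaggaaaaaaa
Hoxd9 (chr2:74697513-74697762, plus strand): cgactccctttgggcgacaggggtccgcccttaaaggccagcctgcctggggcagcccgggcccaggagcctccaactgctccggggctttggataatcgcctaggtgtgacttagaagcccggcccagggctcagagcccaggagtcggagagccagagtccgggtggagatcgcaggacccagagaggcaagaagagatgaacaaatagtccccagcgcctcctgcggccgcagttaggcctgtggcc
Hoxd10 (chr2:74691641-74691890, plus strand): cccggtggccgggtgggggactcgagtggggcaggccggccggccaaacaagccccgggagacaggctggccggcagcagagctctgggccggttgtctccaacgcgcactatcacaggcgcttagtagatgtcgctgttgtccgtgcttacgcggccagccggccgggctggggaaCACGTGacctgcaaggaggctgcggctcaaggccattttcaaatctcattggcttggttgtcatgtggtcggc
The hexamer was absent from the windows of Hoxa11, Hoxd8 and Hoxd9, and was present once in that of Hoxd10, beginning at base -73 from the start. Windows were found for 22 of the 39 coding genes, 24 windows in all, of which 4 (16.7%) held CACGTG. All 4 belonged to cluster D (Hoxd1, Hoxd10, Hoxd11 and Hoxd13), against 6.02% of 32851 windows over all genes. Clusters A and D had 10 windows each, B had 3 and C had 1, so B and C were hardly sampled. The bases just after the annotated start, which are not printed, matched a GENCODE transcript of the gene in the same orientation for 18 of the 22 genes. The printed bases themselves were not checked in this way. Hoxd1, Hoxd10, Hoxd11 and Hoxd13 were all below 1 FPKM in every library. A match of letters is a description and not a site of binding.

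The clusters also hold microRNA genes, whose mature sequences are shown because they form 2 families with a shared seed inside the clusters studied. Capitals mark the seed, bases 2 to 8, and the sequences are from RefSeq.
miR-196a-5p: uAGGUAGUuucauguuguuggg
miR-196b-5p: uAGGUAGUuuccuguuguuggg
miR-10a-5p: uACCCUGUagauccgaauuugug
miR-10b-5p: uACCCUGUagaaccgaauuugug
The first pair shares the seed AGGUAGU and the second pair ACCCUGU. miR-196 genes lie beside the group 9 and 10 genes, and miR-10 genes beside the group 4 genes. Values for the hairpin genes come near the end of the results, since libraries of polyadenylated RNA do not measure mature microRNAs.

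Expression is given as FPKM, fragments scaled to transcript length and library size, so levels of different genes can be compared per length. The sum over all rows was between 540867 and 595437 FPKM. The deposited values have no stated total count. The commonest ratio of low values between libraries gave depths of 1.01, 1.39 and 1.32 times the vector library in the Myc, MycN and Minimal Myc libraries. With these, the 4 values of 70.2% of 6161 genes with low values were whole multiples of what 1 fragment is worth. From those genes, the estimated totals were 64800000, 65700000, 90000000 and 85500000 fragments in the vector, Myc, MycN and Minimal Myc libraries. The authors also deposited a table multiplied by 1 factor per library, namely 1 (vector), 2.04 (Myc), 1.30 (MycN) and 1.28 (Minimal Myc). Values below are from the unscaled table unless the scaled one is named.

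Myc stood at 22.2 FPKM in the vector library, 141 in the Myc library, 4.36 in the MycN library and 32.6 in the Minimal Myc library. Mycn was at 0.390, 0.275, 178 and 95.9 FPKM in the same order. The vector library, described as lacking Myc, therefore held more Myc RNA than the MycN library, and whether these values cover the deleted part was not given in the sources used here. The Minimal Myc library also held far more Mycn RNA than the vector library, and what Minimal Myc is made of was not given either. Libraries are called by their labels throughout. Of 13 fibroblast markers, 12 reached 1 FPKM in all 4 libraries, among them Col1a1 (147 to 243 FPKM), Col1a2 (237 to 454), Vim (476 to 830), Thy1 (95.5 to 354) and Pdgfrb (21.7 to 42.1). Lum, the other marker, stayed at or below 0.354 FPKM. None of 6 epithelial, 5 endothelial and 5 skeletal muscle markers reached 1 FPKM in all 4 libraries, with summed levels of 0.140 to 0.663, 0.250 to 1.29 and 0.154 to 1.09 FPKM. Of 6 immune markers, Cd68 and Cd14 did so while Ptprc, which defines blood cells, stayed at or below 0.0215 FPKM. Of 5 neural markers Tubb3 and Map2 did so, and of 5 cartilage markers Sox9 did (7.38 to 19.8 FPKM, highest in MycN). The part of these markers in the results below was not tested.

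The 4 libraries shared one Hox pattern. In total, 26 of the 39 coding genes reached 1 FPKM in all 4 libraries, 5 did so in some libraries only (Hoxa2, Hoxa11, Hoxc12, Hoxd3 and Hoxd9) and 8 stayed below 1 FPKM throughout (Hoxa13, Hoxb1, Hoxc11, Hoxd1, Hoxd10, Hoxd11, Hoxd12 and Hoxd13). The number at or above 1 FPKM was 27 in the vector library, 30 in the Myc library, 29 in the MycN library and 30 in the Minimal Myc library. Nearly all of cluster B and the middle of clusters A and C were expressed, whereas cluster D was low outside Hoxd3, Hoxd4, Hoxd8 and Hoxd9. In bulk RNA, fewer cells with a gene on and less RNA per cell cannot be told apart.

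**Figure D1:**
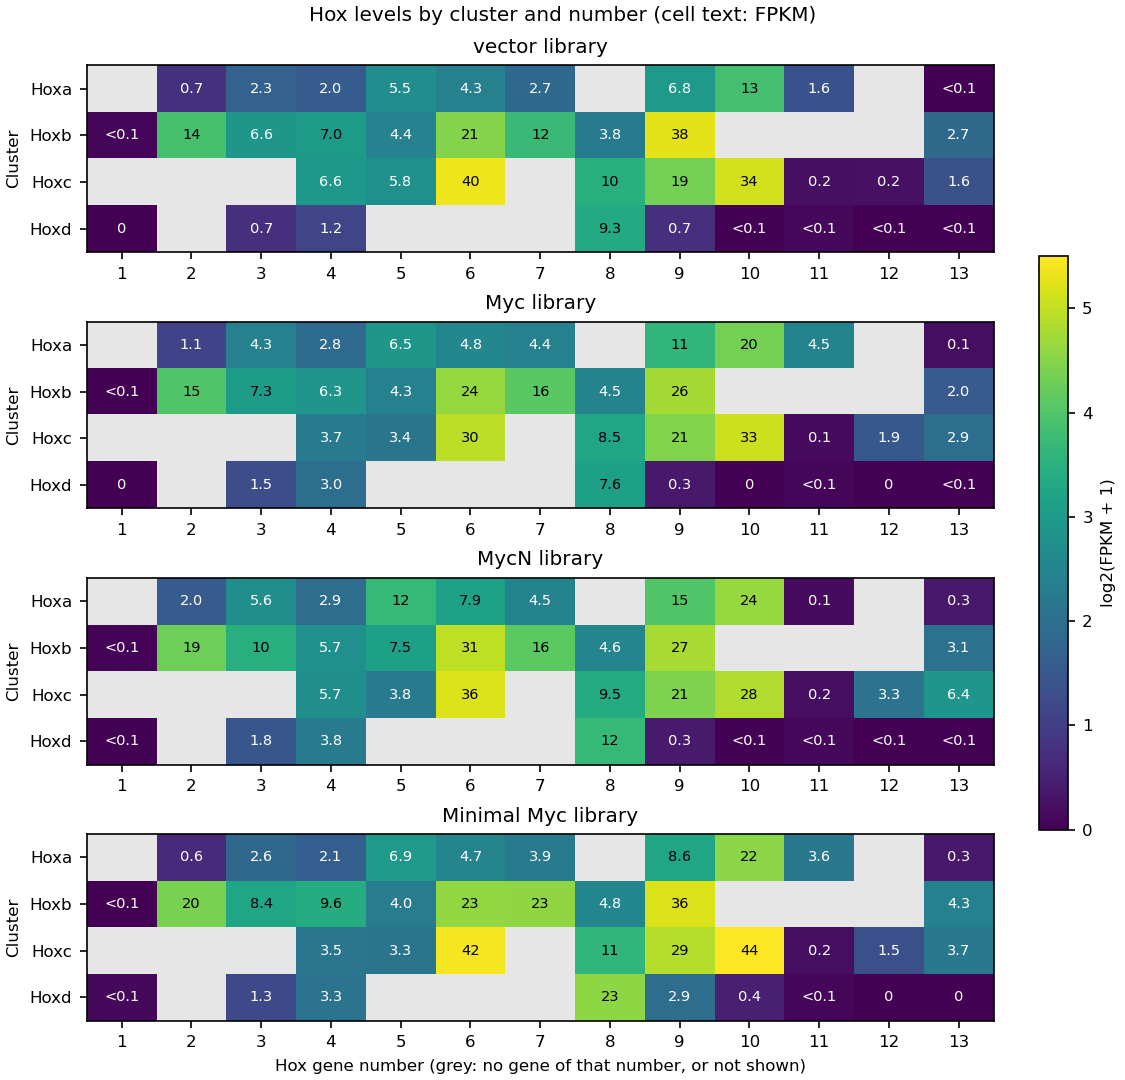
FPKM of coding Hox genes by cluster (rows) and number (columns) in each of the 4 libraries; colour shows log2(FPKM + 1), the numbers show FPKM, and grey marks numbers a cluster does not have or that are not shown. Hoxc6, Hoxc10 and Hoxb9 were among the 4 highest genes of each library, and the posterior end of cluster D was dark in all 4.

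Over the 39 genes, the log2(FPKM + 1) values of any pair of libraries correlated with Pearson's r between 0.931 (Minimal Myc with MycN) and 0.967 (Minimal Myc with Myc), and with Spearman's rho between 0.944 and 0.967. These are descriptions across genes of a single cluster family and not of replicates. The range of each gene over the 4 libraries was taken on log2(FPKM + 1). Its median was 0.76 among the 31 coding genes that averaged at least 1 FPKM, against 0.79 among all 11640 genes past that filter. On this scale 7 of the 31 (22.6%) spanned at least 2-fold, against 29.97% of all genes. The added 1 shrinks the range of low genes, so the FPKM ratio passed 2-fold for others too, such as Hoxa2 (3.43) and Hoxd3 (2.61).

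Cluster A was expressed up to Hoxa11, with the highest level at Hoxa10, a gene known for its part in the lumbar skeleton and the uterus. Hoxa10 stood at 13.5 FPKM in the vector library, 19.5 in the Myc library, 24.0 in the MycN library and 22.2 in the Minimal Myc library. Hoxa9, which supports blood progenitors and is often active in leukaemia, was at 6.85, 11.3, 15.2 and 8.55 FPKM in the same order of libraries, which is used for all values that follow. Both were lowest in the vector library and highest in the MycN library.

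Hoxa5, required for lung and neck development, was at 5.46, 6.49, 11.8 and 6.90 FPKM. Hoxa6, a trunk gene beside it, was at 4.28, 4.82, 7.92 and 4.71 FPKM. Hoxa7, another trunk gene, was at 2.67, 4.35, 4.50 and 3.85 FPKM. In this stretch, Hoxa5 and Hoxa6 were higher in MycN than in the other 3 libraries, while Hoxa7 was nearly level between Myc and MycN.

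Hoxa3, needed for the thymus and parathyroid, was at 2.32, 4.33, 5.57 and 2.59 FPKM. Hoxa4, a gene of the neck vertebrae, was at 2.01, 2.79, 2.91 and 2.13 FPKM. Hoxa2, which gives the second pharyngeal arch its identity, was at 0.742, 1.14, 1.98 and 0.578 FPKM. The vector and Minimal Myc libraries were the lower pair for all 3 of these genes.

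From Hoxa2 to Hoxa10, 8 adjacent genes were thus highest in the MycN library, where 29.0% of all genes past the filter were highest. The ratio of MycN to vector ran from 1.45 to 2.67, with a median of 2.0, and that of Minimal Myc to vector from 0.779 to 1.65, with a median of 1.18. After the median difference of all genes was subtracted, Hoxa4 was below its vector value in MycN and 7 of the 8 were still highest there. In the scaled table all 8 were above vector in MycN, but the Myc library was above the MycN library for Hoxa3, Hoxa4, Hoxa7, Hoxa9 and Hoxa10, so that order depended on the scaling.

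At the posterior end of cluster A the pattern broke. Hoxa11, which acts in the forearm, the kidney and the uterus, was at 1.62 FPKM in the vector library, 4.52 in the Myc library, 0.115 in the MycN library and 3.59 in the Minimal Myc library. The MycN library stood apart, with the highest library 39.3-fold above it, although Hoxa10 next to it was highest there. The ratio of Hoxa10 to Hoxa11 was 8.34 in the vector, 4.32 in the Myc, 208.6 in the MycN and 6.20 in the Minimal Myc library, a measure that no scaling of libraries changes. From the transcript length, Hoxa11 rested on about 228, 644, 22.5 and 665 fragments.

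The antisense transcript Hoxa11as was also lowest in MycN and next lowest in vector, at 1.21, 3.52, 0.0914 and 3.94 FPKM, a 43.0-fold range, but was highest in Minimal Myc where Hoxa11 was highest in Myc. It overlaps Hoxa11, and whether fragments were counted by strand was not given in the sources used here, so the signals of the pair cannot be told apart. Hoxa13, a gene of the hands, feet and genital tubercle, was at 0.0268, 0.146, 0.290 and 0.295 FPKM. These values corresponded to 2, 11, 30 and 29 fragments, and the ratio of Minimal Myc to vector was 11 with an exact 95% interval of 2.78 to 95.1. Such intervals cover counting error between libraries only.

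**Figure D2:**
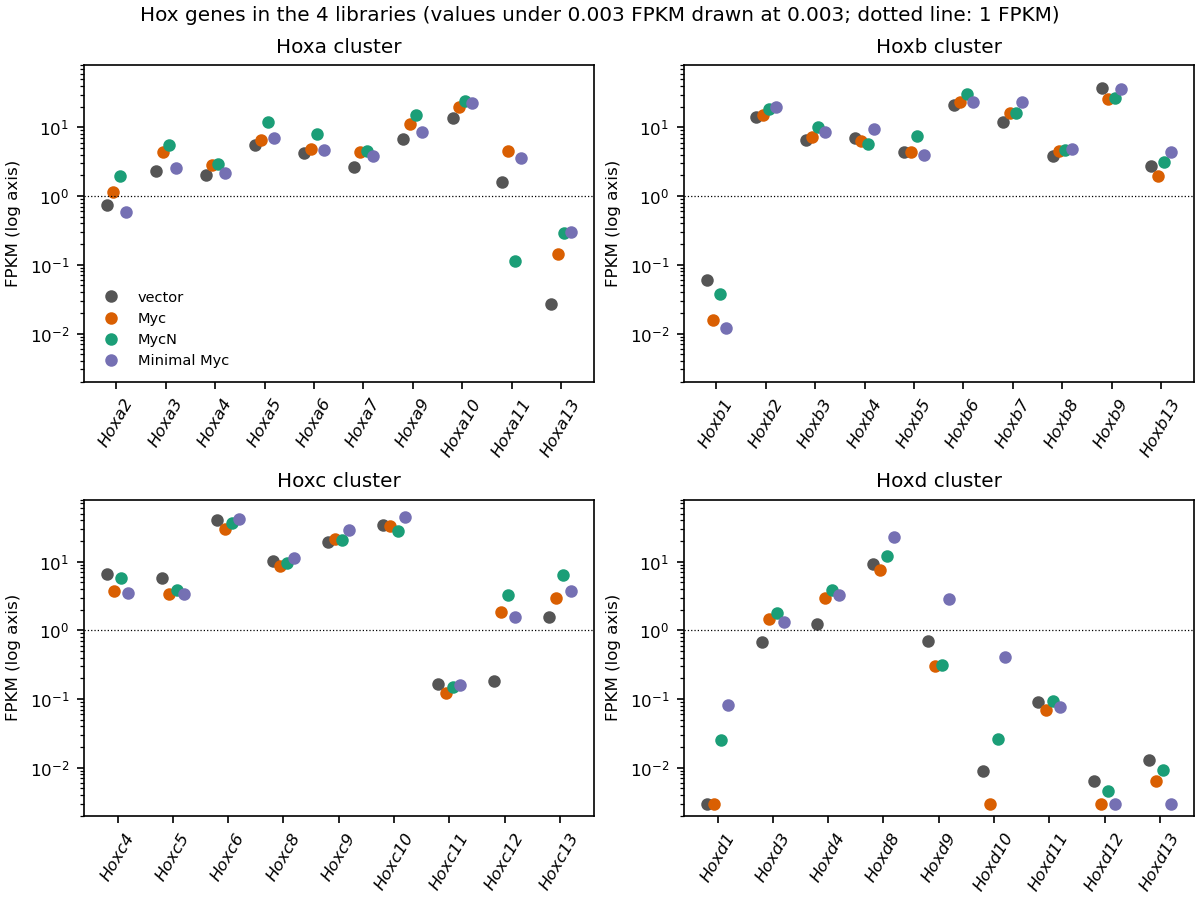
FPKM of coding Hox genes on a log axis, by cluster, with 1 point per library and values under 0.003 FPKM drawn at 0.003; the dotted line is 1 FPKM. The points of most genes lie close together, and gaps of several fold include Hoxa11 (low in MycN), Hoxc12 and Hoxa13 (low in vector), and Hoxd9 and Hoxd10 (high in Minimal Myc).

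Cluster B held the most evenly expressed genes. Hoxb9, a gene of the thoracic skeleton, was the highest of the cluster in 3 libraries, at 37.6 FPKM in the vector, 26.2 in the Myc, 26.6 in the MycN and 35.9 in the Minimal Myc library. Hoxb6, a trunk and flank gene, was at 21.2, 23.7, 30.6 and 23.3 FPKM. Hoxb7, also of the trunk, was at 12.0, 16.1, 16.3 and 23.1 FPKM. Among these, Hoxb9 was lower in Myc and MycN than in vector, though in the scaled table it was higher than vector in Myc (53.5 against 37.6).

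Hoxb2, a hindbrain gene, was at 13.9, 15.0, 18.6 and 19.9 FPKM. Hoxb3, which acts in the hindbrain and neck, was at 6.57, 7.28, 10.1 and 8.42 FPKM. Hoxb4, known for expanding blood stem cells, was at 7.01, 6.34, 5.74 and 9.60 FPKM. No library was lowest for all 3, and no pair differed by 2-fold.

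Hoxb5, which acts in the lung and in the nerve cells of the gut, was at 4.42, 4.31, 7.55 and 3.98 FPKM. Hoxb8, used in the spinal cord and in myeloid progenitors, was at 3.76, 4.54, 4.63 and 4.79 FPKM, with a ratio of 1.06 between Minimal Myc and Myc. Its fragments numbered 620, 758, 1058 and 1041. Hoxb13, best known in the prostate and tail, was at 2.72, 1.98, 3.14 and 4.31 FPKM, highest in Minimal Myc in the unscaled, the centred and the scaled values. Hoxb1, a gene of the fourth hindbrain segment, stayed between 0.0120 and 0.0600 FPKM.

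Cluster C carried the highest single levels. Hoxc6, a gene of the upper thorax and the motor neurons of the arm, was at 40.0 FPKM in the vector, 30.1 in the Myc, 36.2 in the MycN and 41.8 in the Minimal Myc library. Hoxc10, a gene of lumbar motor neurons, was at 33.9, 32.7, 27.8 and 43.8 FPKM. Hoxc9, of the thorax, was at 19.4, 21.0, 20.8 and 28.8 FPKM. In the vector library Hoxc6 stood at the 87.8th percentile of the genes past the filter, and all 3 genes were highest in Minimal Myc in the unscaled table and in Myc in the scaled one. After centring, Hoxc6 and Hoxc10 were highest in vector and Hoxc9 in Minimal Myc.

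Hoxc8, a gene of the ribs and lower arm motor neurons, was at 10.1, 8.48, 9.51 and 11.2 FPKM. Hoxc4, a neck gene, was at 6.60, 3.74, 5.70 and 3.48 FPKM. Hoxc5, its neighbour, was at 5.81, 3.38, 3.82 and 3.34 FPKM. Hoxc4 and Hoxc5 had ratios to vector of 0.567 and 0.582 in Myc and 0.527 and 0.575 in Minimal Myc. The fragments of Hoxc5 numbered 991, 584, 904 and 751, and its ratio of Myc to vector had an exact 95% interval of 0.524 to 0.645. In the scaled table the direction flipped in Myc for both genes (Hoxc4 7.63 against 6.60, Hoxc5 6.90 against 5.81) and in MycN for Hoxc4, and stayed below vector in Minimal Myc.

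The posterior genes of cluster C differed from vector in the other direction. Hoxc12, a gene of the hair follicle and tail region, was at 0.185, 1.85, 3.25 and 1.55 FPKM, a 17.6-fold range with the vector library alone at the bottom. Hoxc13, needed for hair and nails, was at 1.58, 2.94, 6.38 and 3.68 FPKM, again lowest in vector and highest in MycN. Both orders held in the unscaled, the centred and the scaled values. Hoxc13 rested on 238, 448, 1332 and 729 fragments, and the ratio of MycN to vector was 4.03 with an exact 95% interval of 3.51 to 4.65. Whole fragments could not be settled for Hoxc12, for which the transcript length gave about 10.4, 105, 253 and 114.

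The ratio of Hoxc10 to Hoxc13 was 21.5, 11.1, 4.36 and 11.9 in the same order of libraries. Hoxc11, which lies between Hoxc10 and Hoxc12, stayed between 0.123 and 0.167 FPKM in all 4 libraries. Hotair, a long non-coding RNA transcribed opposite to the genes in this interval, stayed between 0.206 and 0.262 FPKM. The higher level in MycN than in vector at Hoxc12 and Hoxc13 thus had no counterpart at these 2 transcripts.

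Cluster D was the lowest in sum, and the library labelled Minimal Myc stood apart in it. Hoxd8, a trunk gene, was at 9.34 FPKM in the vector, 7.64 in the Myc, 12.0 in the MycN and 22.5 in the Minimal Myc library. Hoxd9, a gene of the lumbar region and upper limb, was at 0.706, 0.301, 0.313 and 2.90 FPKM. Hoxd10, of the lumbar spinal cord and limb, was at 0.00900, 0, 0.0259 and 0.403 FPKM. All 3 adjacent genes were highest in Minimal Myc, and for Hoxd8 and Hoxd9 this held in the unscaled, the centred and the scaled values.

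Hoxd10 rested on 1, 0, 4 and 59 fragments. Its ratio of Minimal Myc to MycN was 15.5 with an exact 95% interval of 5.75 to 58.9, and that of Minimal Myc to vector was 44.8 with an interval of 7.73 to 1797. The ratio of Hoxd8 to Hoxd9 was 13.2, 25.4, 38.2 and 7.78. The difference among libraries was therefore larger for Hoxd9, with a 9.64-fold range, than for Hoxd8, with a 2.95-fold range.

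Hoxd3 and Hoxd4, at the anterior side of the cluster, had another order. Hoxd4, a gene of the neck vertebrae with a known retinoic acid response, was at 1.23, 2.99, 3.84 and 3.25 FPKM. Hoxd3, which patterns the first vertebrae, was at 0.676, 1.47, 1.76 and 1.33 FPKM. Both were lowest in vector, as were 68.1% of all genes past the filter. Both were highest in MycN, although in the scaled table both were highest in Myc. Hoxd4 rested on 195, 482, 847 and 681 fragments, and its ratios to vector were 2.44 (exact 95% interval 2.06 to 2.90), 3.13 (2.68 to 3.68) and 2.65 (2.26 to 3.12).

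The remaining genes of cluster D, which shape the digits and genitalia at the posterior end, were near the limit of detection. Hoxd13 rested on 2, 1, 2 and 0 fragments and Hoxd12 on 1, 0, 1 and 0, all under the 3 fragments that a count of 0 allows. Hoxd11 stayed between 0.0684 and 0.0924 FPKM. Hoxd1, at the anterior end, was listed at 0 in vector and Myc, and at 0.0258 and 0.0813 FPKM in MycN and Minimal Myc.

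**Figure D3:**
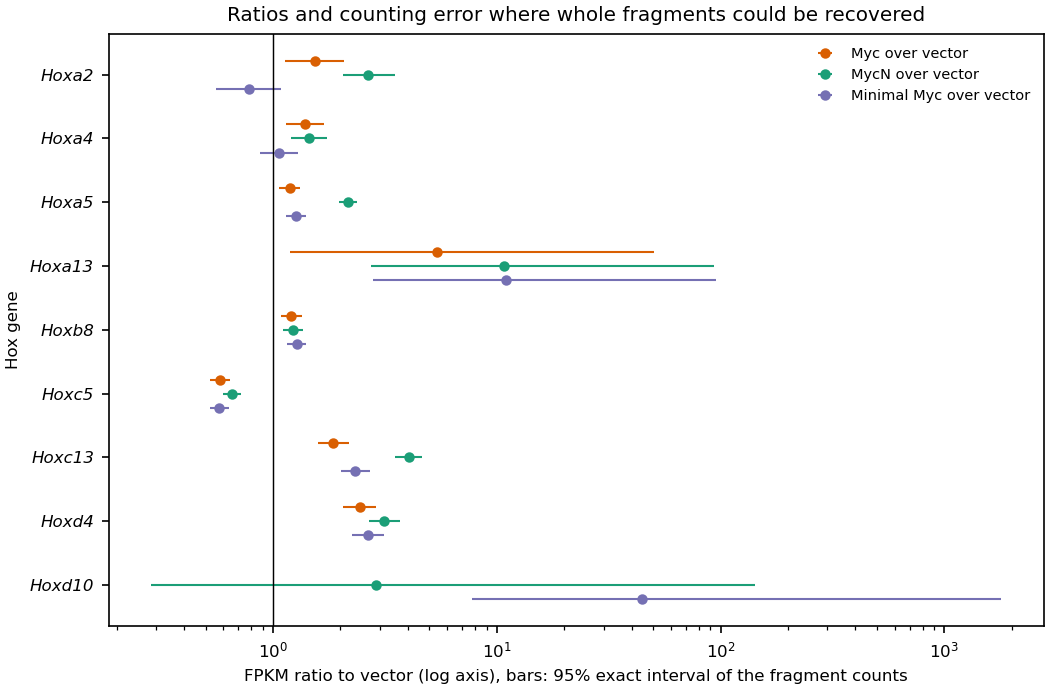
FPKM ratio to the vector library on a log axis for Hox genes whose values could be turned into whole fragments, with exact 95% intervals from the fragment counts; intervals cover counting error only, and Hoxd12, Hoxd13 and ratios from 0 fragments are not drawn. Hoxc5 lies below 1 in all 3 libraries before scaling (in the scaled table it was above vector in Myc), and Hoxc13 and Hoxd4 lie above 1 in all 3.

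As shares of the summed Hox FPKM, which no scaling of a library changes, clusters B and C held most and cluster D least in every library. Cluster A held 14.6% in the vector library, 21.6% in the Myc library, 22.9% in the MycN library and 15.9% in the Minimal Myc library. Cluster B held 39.0%, 37.2%, 37.3% and 37.1%. Cluster C held 42.1%, 36.8%, 34.4% and 38.4%, and cluster D 4.31%, 4.40%, 5.46% and 8.53%. The share of cluster A was thus larger in Myc and MycN, and that of cluster D was largest in Minimal Myc. Most of cluster D was Hoxd8, with 22.5 of 30.6 FPKM in Minimal Myc and 9.34 of 12.1 FPKM in vector.

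By number, genes 1 to 4 held 15.2%, 16.6%, 17.4% and 14.8% of the sum. Genes 5 to 8 held 42.5%, 40.2%, 43.8% and 41.7%, and genes 9 to 13 held 42.3%, 43.3%, 38.8% and 43.6%. With all 39 genes counted, the balance of anterior, central and posterior genes therefore differed by at most 5 percentage points. Shares without Hoxc6 are given in the last section. The 5 highest genes held 54.3%, 47.1%, 43.9% and 48.4%. The summed level itself was 280, 284, 330 and 359 FPKM.

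**Figure D4:**
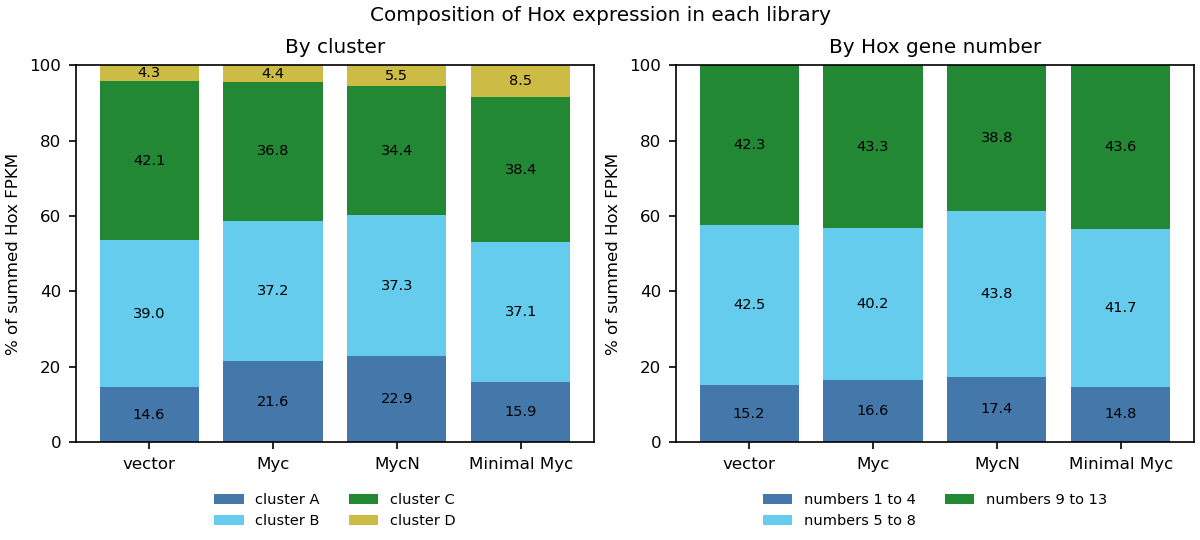
Percent of the summed FPKM of the 39 coding Hox genes by cluster (left) and by number (right), 1 stacked bar per library. Cluster A took 14.6% in vector and 22.9% in MycN, cluster D 4.31% in vector and 8.53% in Minimal Myc, and the split by number was nearly level. Hoxd8 made up most of cluster D in each library.

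The comparisons with the vector library ask which genes differ in the cultures labelled Myc, MycN or Minimal Myc; they share that library and are not independent. Differences here are of log2(FPKM + 1), which understates the change of low genes, over the 31 coding Hox genes past the filter. The median difference of all genes from vector was 0.47 for the Myc, 0.42 for the MycN and 0.47 for the Minimal Myc library. With the scaled values it was 1.42, 0.76 and 0.80.

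In the Myc library the Hox median was 0.15, and 9 of 31 genes lay above the median of all genes. Hoxc12 (1.27) and Hoxa11 (1.08) were at least 2-fold higher than in vector, where 11.2% of all genes were, and 0 were at least 2-fold lower (1.56% of all genes). After the shift of all genes was subtracted, 0 were 2-fold higher (1.87% of all genes) and Hoxc4 and Hoxc5 were 2-fold lower (4.38%). With the authors' scaled values, 18 of 31 were 2-fold higher, against 78.5% of all genes, and 0 were lower (0.498%).

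In the MycN library the Hox median was 0.39, and 14 of 31 lay above the median of all genes. Hoxc12 (1.84), Hoxc13 (1.52), Hoxd4 (1.12) and Hoxa9 (1.04) were at least 2-fold higher, against 7.65% of all genes, and Hoxa11 (-1.23) was lower (1.86%). After centring, Hoxc12 and Hoxc13 were higher (1.86% of all genes) and Hoxa11 was lower (4.19%). From the scaled values, 9 were higher (27.4% of all genes) and 1 was lower (1.25%).

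In the Minimal Myc library the Hox median was 0.32, and 12 of 31 lay above the median of all genes. Hoxd9 (1.19), Hoxd8 (1.19) and Hoxc12 (1.10) were at least 2-fold higher, against 13.6% of all genes, and 0 were lower (1.68%). After centring, 0 were higher (3.71% of all genes) and Hoxc4 and Hoxc5 were lower (4.68%). Scaled values gave 8 that were higher (33.7%) and 0 that were lower (1.05%).

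**Figure D5:**
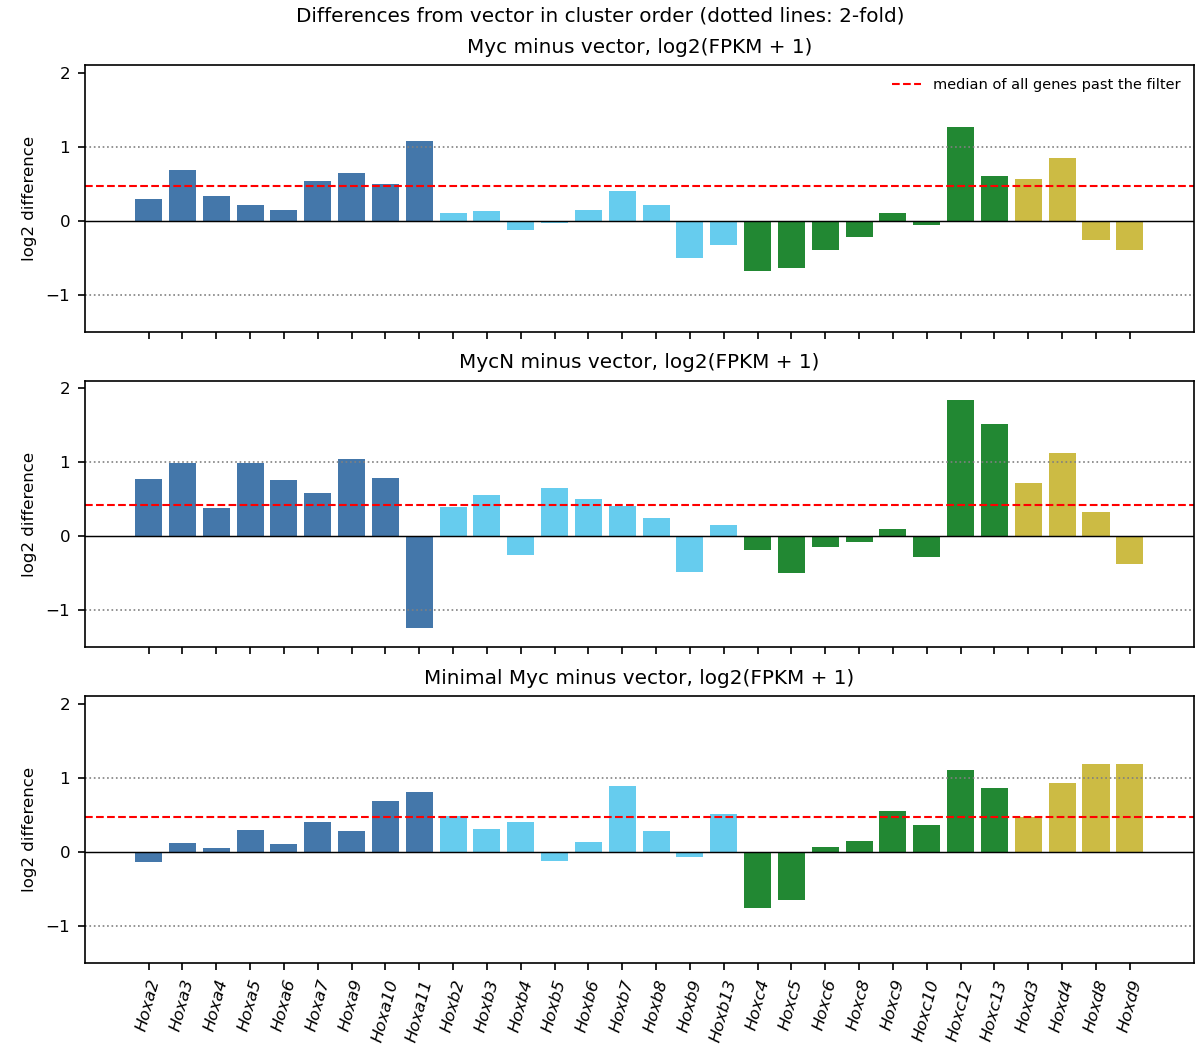
Difference of log2(FPKM + 1) from the vector library for 30 of the 31 coding Hox genes past the filter, in cluster order and coloured by cluster; dotted lines mark 2-fold and the red dashed line the median of all genes. Hoxa11 points up in Myc and Minimal Myc and down in MycN, and Hoxc12 is above the 2-fold line in all 3. Some bars below 0, such as those of Hoxc6 in Myc and MycN, change sign with the scaling.

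Comparisons among the other 3 libraries do not involve the vector culture. Between MycN and Myc the Hox median was 0.28 against -0.06 for all genes, and 27 of 31 lay above the median of all genes. Even so, 0 were at least 2-fold higher (1.95% of all genes), and only Hoxa11 (-2.31) was lower (2.74%). The scaled Hox median was -0.28 against -0.67 for all genes, with 27 of 31 again above it, 0 higher (0.851%) and 1 lower (20.2%).

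Between Minimal Myc and Myc the Hox median was 0.08 against -0.03 for all genes. Hoxd9 (1.58) and Hoxd8 (1.45) were at least 2-fold higher, against 4.48% of all genes, and 0 were lower (2.16%). With the scaled values Hoxd9 alone was higher (2.44%) and Hoxa3 and Hoxa9 were lower (17.7%).

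Between Minimal Myc and MycN the Hox median was -0.15 against 0.05 for all genes. Hoxa11 (2.04) and Hoxd9 (1.57) were at least 2-fold higher, against 6.94% of all genes, and 0 were lower (3.69%). Scaled values gave 2 that were higher (6.97%), and Hoxa2 was lower (4.13%).

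Partners and regulators of Hox genes were read from lists, with calls at 2-fold in the unscaled table, to be read against its backgrounds given above. All 11 TALE homeodomain genes, which encode DNA binding partners of Hox proteins and relatives of these, passed the filter. At least 2-fold higher than in the vector library were 1 with Myc, 2 with MycN and 1 with Minimal Myc, and 0 were lower in any of the 3. Over all genes past the filter, 11.2%, 7.65% and 13.6% were higher in these libraries, and 1.56%, 1.86% and 1.68% were lower. Meis1, which joins Pbx and Hox proteins on DNA, was at 3.57, 4.47, 4.70 and 7.74 FPKM, highest in Minimal Myc.

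Pbx2, a gene for a Hox partner, was at 12.0, 18.4, 25.6 and 18.8 FPKM. Pbx4 was at 1.71, 2.08, 3.58 and 0.678 FPKM, highest in MycN and lowest in Minimal Myc. Tgif2, a repressor of the same protein class, was at 4.26, 11.4, 9.94 and 8.64 FPKM, lowest in vector.

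All 30 Polycomb genes passed the filter, and 3, 7 and 2 of them were at least 2-fold higher than in vector in the other 3 libraries. Of all genes 11.2%, 7.65% and 13.6% were higher. None of the Polycomb genes was lower, against 1.56%, 1.86% and 1.68% of all genes. The Polycomb medians, 0.46, 0.53 and 0.49, lay close to those of all genes. Ezh2, the methyltransferase of Polycomb complex 2, was at 30.2, 42.0, 37.8 and 30.9 FPKM. Suz12, its partner, was at 19.0, 34.3, 27.6 and 35.4 FPKM. Bmi1, a core subunit of Polycomb complex 1, was at 19.1, 20.9, 20.0 and 28.3 FPKM, and none of these 3 reached 2-fold from vector.

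Pcgf6, a subunit of a variant complex 1, had the widest range among the Polycomb genes whose values were above 0, at 1.70, 13.3, 13.1 and 3.07 FPKM. Cbx2, which reads the Polycomb mark, was at 4.08, 7.30, 12.6 and 6.09 FPKM. Rbbp7, a histone binding subunit, was at 76.5, 212, 102 and 217 FPKM. Myc and MycN were thus alike for Pcgf6 but not for Rbbp7. Aebp2, an accessory subunit, was at 37.5, 70.0, 86.3 and 54.7 FPKM, and Jarid2, another, was listed at 0 in vector and at 3.16, 4.97 and 2.33 FPKM in the others.

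All 18 genes of the list of Mll complexes and demethylases of the Polycomb mark passed the filter. At least 2-fold higher than in vector were 3, 2 and 1, against 11.2%, 7.65% and 13.6% of all genes. Lower were 0, against 1.56%, 1.86% and 1.68% of all genes. Kmt2a, the Mll methyltransferase best known for keeping Hox genes on, was listed under the older symbol Mll1 at 7.99, 10.9, 10.5 and 7.72 FPKM. Men1, its partner menin, was at 17.5, 30.1, 34.7 and 25.5 FPKM. Psip1, which tethers this complex to chromatin, was at 25.9, 57.3, 45.7 and 71.2 FPKM. Kmt2a and Men1 did not reach 2-fold, whereas Psip1 did in Myc and Minimal Myc.

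Dpy30, a shared core subunit, was at 52.3, 142, 116 and 95.4 FPKM. Rbbp5, another, was at 6.10, 15.4, 15.9 and 12.8 FPKM. Kmt2d, listed under the older symbol Mll2, was at 10.5, 10.6, 17.1 and 7.75 FPKM. The core subunits were lowest in vector, as were 68.1% of all genes past the filter, and Kmt2d was lowest in Minimal Myc.

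Retinoic acid sets Hox expression in the embryo, and 13 of 22 genes of its pathway passed the filter. At least 2-fold higher than in vector were 1, 1 and 0 genes in the other 3 libraries, against 11.2%, 7.65% and 13.6% of all genes. Lower were 0, 1 and 1, against 1.56%, 1.86% and 1.68% of all genes. Crabp1, a cellular binding protein for retinoic acid, was at 439, 696, 236 and 589 FPKM. Aldh1a1, an enzyme that makes retinoic acid, was at 1.90, 6.08, 0.137 and 0.261 FPKM. Crabp1 and Aldh1a1 were lowest in the MycN library, as was Hoxa11, while Hoxa11 and Aldh1a1 parted in Minimal Myc. In contrast, Rxra, Rxrb and Cyp26b1, given next, were highest in MycN in the unscaled table. These genes were set beside Hoxa11 after their values were seen, and a link was not tested.

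Rxra, a nuclear receptor partner, was at 13.2, 6.27, 17.4 and 14.6 FPKM. Rxrb, its relative, was at 13.6, 26.0, 31.8 and 21.3 FPKM. Cyp26b1, which degrades retinoic acid in the limb, was at 0.808, 0.254, 2.60 and 0.458 FPKM. Aldh1a2, the main enzyme of synthesis in the trunk of the embryo, was at or below 0.00518 FPKM.

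Of 35 limb and body wall factors, 17 passed the filter, and 2, 3 and 6 were at least 2-fold higher than in vector in Myc, MycN and Minimal Myc, with 0, 2 and 0 lower. Of all genes 11.2%, 7.65% and 13.6% were higher in these libraries, and 1.56%, 1.86% and 1.68% were lower. En1, which marks ventral limb ectoderm and a lineage of dermal fibroblasts of the back, was at 7.02, 11.9, 24.8 and 36.2 FPKM. Tbx3, of the posterior limb and flank, was at 2.72, 3.06, 6.35 and 10.0 FPKM. Both were highest in Minimal Myc.

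Twist2, a gene of dermal fibroblasts, was at 113, 289, 324 and 417 FPKM. Prrx2, of limb and body wall mesenchyme, was at 106, 60.5, 182 and 163 FPKM. Osr2, a gene of the palate and joints, was at 0.541, 2.70, 4.77 and 2.22 FPKM. Twist2 and Osr2 were lowest in vector, as were 68.1% of all genes past the filter. Prrx2 was lowest in Myc, though in the scaled table it was lowest in vector.

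The genes that tell hindlimb from forelimb were at the bottom of the scale. Pitx1, a hindlimb gene, was listed at 0 in all but the MycN library, where it was at 0.0286 FPKM. Tbx4, another hindlimb gene, stayed at or below 0.0278 FPKM. Tbx5, the forelimb gene, was at 0.187, 0.149, 0.141 and 0.901 FPKM, below 1 FPKM in every library and highest in Minimal Myc.

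Of 30 head and neural crest factors, 12 passed the filter. At least 2-fold higher than in vector were 0, 1 and 3, against 11.2%, 7.65% and 13.6% of all genes. Lower were 0, 1 and 0, against 1.56%, 1.86% and 1.68% of all genes. Hand2, a gene of the jaw and limb bud that is also on the limb list, was at 7.0, 7.29, 2.38 and 4.44 FPKM, lowest in MycN. Foxc1, of skull and eye mesenchyme, was at 3.21, 6.14, 7.13 and 8.70 FPKM. Pax3, of neural crest and muscle precursors, was at 0.559, 1.16, 0.410 and 2.14 FPKM. Dlx4 was at 0.523, 0.941, 2.44 and 2.54 FPKM, and no single library was highest for all 4 genes.

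Of 8 genes of the Cdx and ParaHox list, which act upstream of or in parallel to Hox genes, only Gdf11, a signal for trunk length, passed the filter. It was at 5.29, 6.42, 5.89 and 7.17 FPKM. Cdx1, Cdx2 and Cdx4, which switch on posterior Hox genes in the early embryo, stayed at or below 0.189 FPKM.

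Among the non-coding list of 16 genes, 8 had rows. The hairpin gene Mir196a-1 in cluster B was at 453, 562, 737 and 660 FPKM, and Mir196b in cluster A at 77.2, 38.1, 111 and 39.0 FPKM. Mir10a was at 4.56, 0, 6.57 and 0 FPKM, Mir10b was listed at 0 throughout, Mir196a-2 was listed above 0 in Myc only (12.7) and Mir615 was at 9.26, 9.14, 0 and 0. Hairpin genes are so short that few fragments give a high FPKM, so no order of libraries is read from any of them.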

How the data were processed

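Polyadenylated RNA of 4 cultures was sequenced, 1 library per group. The authors deposited FPKM per gene in an unscaled table and in a table scaled by 1 factor per library. TopHat2 2.0.11, Cufflinks 2.2.0 and mouse build mm9 are named, with no role or order, per the submitters' processing notes. Filters and strand use in counting are not given in the sources used here. Identical rows of a gene were counted once and different rows were summed. Rows marked NanoString, a hybridization assay, were left out and held 0 Hox genes.

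Differences are of log2(FPKM + 1), for genes averaging at least 1 FPKM over the 4 libraries, without 310 small RNA genes, and a call is 2-fold. No test was possible with 1 library per group, so members are set beside all 11640 genes past the filter. Coding Hox genes reaching 1 FPKM in at least 1 library are named, and single values of some genes are not reported here, although counts, medians and shares include them. Of each list, at most the 5 members with the largest range among those reaching 2-fold in any comparison are named, together with preset genes (Ezh2, Suz12, Bmi1, Kmt2a, Men1, Meis1, Pitx1, Tbx4, Tbx5 and fibroblast markers). Of the marker lists, only the preset and defining ones are named. Genes named outside this rule were chosen after their values were seen. The members and lists were chosen with earlier results of these data known.

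Whole fragments were sought for 6161 low genes by finding the smallest whole numbers in the ratio of the FPKM values, within 0.005. The search was also run on simulated counts that were whole by construction, so that run cannot show how often deposited values are whole. Among the 6161 low genes themselves the search succeeded for 70.2%. Smallest counts up to 1000 were tried, so a gene with values above 0 in few libraries is easily matched. Hox values were accepted as fragments for 12 of 40 symbols, where the worth of 1 fragment lay within 0.8 to 1.25 times that of the 200 genes nearest in length. Ratio intervals are exact 95% Clopper-Pearson intervals. Computation used Python 3.11.15 with pandas 2.3.3, numpy 2.4.6 and scipy 1.17.1. Alternatives were the scaled table, centring on the median of all genes, another pseudocount, filter, fold and detection level, the largest row of a gene, and shares without Hoxc6.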

Additional observations from a re-analysis of the deposited data

How the results depend on the processing

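No paired analysis was possible because each group has 1 library, and for the same reason no library could be left out. Hox genes at least 2-fold higher in Myc than in vector, 2 as reported, numbered 18 in the scaled table, 0 after centring, 4 with a pseudocount of 0.1, 0 with a filter of 5 FPKM and 6 at 1.5-fold. Those lower, 0 as reported, numbered 2 after centring, 1 with the lower pseudocount and 2 at 1.5-fold. In MycN against vector the 4 higher became 9, 2, 8, 1 and 11 under the same 5 changes, and the 1 lower became 0 with the higher filter. In Minimal Myc against vector the 3 higher became 8, 0, 6, 1 and 8, and the 0 lower became 2 after centring and 2 at 1.5-fold. Between MycN and Myc the 0 higher became 1 with the lower pseudocount and 4 at 1.5-fold, and the 1 lower became 0 with the higher filter. For Minimal Myc against Myc the 2 higher became 1 with scaling and 1 with the higher filter, and the 0 lower became 2 with scaling. For Minimal Myc against MycN the 0 lower became 1 in the scaled table, 3 with the lower pseudocount and 8 at 1.5-fold, and the 2 higher became 0 with the higher filter and 5 at 1.5-fold. The Hox median moved to 1.08, 0.75 and 0.64 against vector (Myc, MycN, Minimal Myc) in the scaled table and to -0.32, -0.029 and -0.16 after centring. It moved to -0.28 for MycN against Myc and -0.52 for Minimal Myc against Myc in the scaled table, and with the higher filter to 0.37 for Minimal Myc against Myc and 0.15 for Minimal Myc against MycN. Fewer genes are tested with the higher filter. Scaling multiplies all genes of a library by 1 factor, and centring subtracts 1 value from all differences of a comparison. A lower fold or a lower pseudocount can add calls but not remove them. Without Hoxc6, cluster B held 45.5% in vector, and cluster C 32.4%, 29.3%, 26.3% and 30.3% in the 4 libraries in the order used above. Genes 5 to 8 then held 32.9%, 33.1%, 36.9% and 34.0%, and genes 9 to 13 held 49.3% in vector, 48.4% in Myc and 49.3% in Minimal Myc. In MycN the share of genes 9 to 13 moved by less than 5 percentage points from 38.8%. The numbers of detected genes stayed within 1.5 times the reported ones under all 4 alternatives tried for them, and so did all counts with no filter and with the largest row of a gene. Genes under about 3 fragments, such as Hoxd12 and Hoxd13, cannot be compared at this depth.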
